A study of Mus musculus with 9 samples.

Results

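Genes of 10 cell surface proteins used to mark blood stem and progenitor cells were measured by RNA in mouse acute myeloid leukemia (AML). They were chosen by name: Cd34, Prom1, Ly6a (Sca-1), Slamf1 (CD150), Cd48, Cd93, Cd9, Cd24a, Cd33 and Cd47, which are 10 of the 55536 genes of the table. These members and the lists of other genes below were chosen with earlier results of these data known, so counts over them are descriptive. The leukemias were induced in C57BL/6J mice by an MSCV retrovirus that carries the fusion oncogene MLL-AF9 with GFP, put into c-kit+ cells of WT or IRF7-/- donors. The knockout allele replaced exons 2 and 3 of Irf7, the gene of interferon regulatory factor 7, with a PGK-beta-geo cassette. Recipients aged 6 to 8 weeks were given 1000000 leukemia cells per mouse without irradiation, and GFP+ cells were sorted from bone marrow on day 18 by c-kit, the receptor encoded by Kit. The 9 libraries, 3 to a group, were AML-WT-c-kit- (c-kit- WT below), AML-WT-c-kit+ (c-kit+ WT below) and those labelled AML-IRF7-/--c-kit+ (the knockout-labelled libraries below). Whether the 3 libraries of a group came from separate mice is not stated, so p-values measure the spread between these libraries, which may be technical. Values are TPM, transcript abundance scaled by transcript length and library total, a unit in which genes can be compared with each other within a library.

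Blood stem cells are commonly isolated as cells without lineage markers that carry c-kit and Sca-1. Within them the SLAM proteins separate stem cells, which carry CD150 and lack CD48, from multipotent progenitors, most of which carry CD48. CD34 separates short-lived from long-lived stem cells in the mouse and is kept on committed myeloid progenitors. In MLL-AF9 leukemia of the mouse the cells that pass on the disease resemble granulocyte-macrophage progenitors, which carry c-kit and CD34 and little Sca-1. The remaining proteins are broader: CD93 is found on progenitors and monocytes, CD9 and CD24 on many blood lineages, CD33 on myeloid cells and CD47 on nearly all cells.

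The members that moved furthest were Cd48 and Prom1 between the WT populations and Cd9 and Cd24a between the c-kit+ populations. RefSeq holds a promoter for 7 of the 10 genes. The stretches of 4 are shown, upstream of the gene start on the coding strand of GRCm38.p6: Cd48 and Slamf1, neighbours on chromosome 1 that were far apart in level, Prom1, which ran against Cd48, and Cd9. Capitals mark matches to TGTGGT, the core letters of RUNX sites, and to CCAAT, both sought on each strand.

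Cd48, chr1:171681742-171681991, + strand: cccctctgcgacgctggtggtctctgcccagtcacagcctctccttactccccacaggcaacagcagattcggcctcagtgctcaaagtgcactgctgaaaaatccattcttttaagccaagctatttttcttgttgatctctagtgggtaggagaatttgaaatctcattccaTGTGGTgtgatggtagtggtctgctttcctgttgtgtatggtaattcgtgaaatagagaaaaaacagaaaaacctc

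Slamf1, chr1:171766882-171767131, + strand: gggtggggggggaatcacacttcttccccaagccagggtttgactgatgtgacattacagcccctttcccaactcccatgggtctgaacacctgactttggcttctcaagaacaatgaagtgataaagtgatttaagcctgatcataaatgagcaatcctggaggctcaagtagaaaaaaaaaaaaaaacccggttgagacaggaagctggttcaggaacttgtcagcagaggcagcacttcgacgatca

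Prom1, chr5:44101737-44101986, - strand: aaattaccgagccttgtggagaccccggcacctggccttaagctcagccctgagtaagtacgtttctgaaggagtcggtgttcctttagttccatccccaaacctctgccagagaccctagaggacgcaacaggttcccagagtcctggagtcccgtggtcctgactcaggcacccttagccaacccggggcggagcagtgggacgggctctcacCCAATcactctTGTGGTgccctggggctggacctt

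Cd9, chr6:125494761-125495010, - strand: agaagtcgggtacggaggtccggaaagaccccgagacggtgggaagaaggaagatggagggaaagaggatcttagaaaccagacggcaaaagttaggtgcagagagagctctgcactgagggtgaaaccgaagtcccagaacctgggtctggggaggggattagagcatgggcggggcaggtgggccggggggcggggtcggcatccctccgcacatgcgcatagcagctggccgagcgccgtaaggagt

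The letters TGTGGT start 76 bases before the Cd48 start and 24 bases before this Prom1 start, and CCAAT stands 35 bases before the latter. Neither run of letters occurs in the Slamf1 and Cd9 stretches. TGTGGT is held by 13.96% of the 32544 promoters of this length and CCAAT by 33.8%, so both are common. GAGGAA, the core of PU.1-type ETS sites, occurs in 23.36% of promoters and, among the 9 member entries (Prom1 and Cd47 have 2 each), in the second Prom1 entry and in Cd33. Neither AGATAA (9.968% of promoters), which is bound by the GATA factor family, nor the paired interferon response letters GAAANNGAAA (2.981%) occurs in a member entry. The entries of Cd33, Cd47 and Prom1 lie inside the spans given below for these genes, so they precede RefSeq starts within the gene. The first Prom1 entry is close to the outer end of its span. Cd33 also holds TGTGGT and CCAAT. These matches describe letters in a window and were not tested against expression.

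The libraries were checked before the members were read. Within a group the libraries correlated with r of 0.973 to 0.984 across 13962 genes, against 0.851 to 0.932 between groups. Kit was 0.52 to 3.03 TPM in c-kit- WT, 50.7 to 58.5 in c-kit+ WT and 70.3 to 85.7 in the knockout-labelled libraries, in the order of the sort labels. Irf7 was higher in every knockout-labelled library (5.97 to 12.8 TPM) than in any c-kit+ WT library (3.36 to 5.31 TPM), which runs against the label. The gene value also covers exons outside the replaced exons 2 and 3, so it does not test the deletion itself. The study also checked IRF7 by qRT-PCR and Western blot, which were not analysed here. Directions drawn from these libraries follow the label. Genes of maturing neutrophils (10 genes, of which S100a9, S100a8, Ngp and Camp make up most of the sum) summed to 56740 to 110900 TPM in c-kit+ WT and 1604 to 2529 TPM in the knockout-labelled libraries. They summed to 6169, 7725 and 30680 TPM in c-kit- WT replicates 1, 2 and 3, so replicate 3 stood apart from the other two. Between the WT populations the list was mixed: 4 of 10 rose in c-kit+ WT (S100a8, S100a9, Camp and Ngp), 5 did not pass, and Mmp8, a neutrophil collagenase, fell from 74.6 to 4.68 TPM (log2FC -3.79, limma adjusted p = 0.000184). Monocyte and macrophage genes (8 genes) summed to 8593 to 12210 TPM in c-kit- WT and 2091 to 3477 TPM in c-kit+ WT. In the knockout-labelled libraries they summed to 633 to 796.6 TPM. Lyz2 was the largest part, with means of 9453, 2431 and 393 TPM in these groups in turn. The 6 T cell markers summed to 1.96 TPM at most, and among 5 B cell markers Cd79b made up nearly all of a sum of 26.4 to 38.1 TPM.

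In TPM the members spanned from near 0 to 401 (the plot of the 10 genes by library). In c-kit- WT the order ran from Cd24a (303 ± 47.4, mean ± SD, n = 3) through Cd47 (270 ± 7.11) and Cd48 (248 ± 21.1), whose ranges overlapped, to Cd34, Cd93, Cd33 and Cd9, each overlapping with the next. Ly6a (17.4 ± 1.87), Prom1 (2.71 ± 2.52) and Slamf1 followed without overlap. In c-kit+ WT Cd24a (373 ± 35.1) and Cd47 (300.3 ± 2.83) stood clear of each other and of the rest, and Cd33, Cd34, Cd9, Cd48 and Cd93 formed a middle group of overlapping neighbours from 80.0 down to 53.5 TPM. In the knockout-labelled libraries Cd47 (265 ± 9.61) was first with no overlap, and Cd24a (56.7 ± 50.3) had moved from first to the sixth place. The sum over the 10 genes was 1130, 1189 and 1249 TPM in c-kit- WT, 1110, 1010 and 1084 in c-kit+ WT, and 664.7, 824.4 and 681.5 in the knockout-labelled libraries. The last group was lower than both others in every library. Abundant genes weigh most in this sum, and the mean of Cd24a was 303, 373 and 56.7 TPM in the groups in turn. Against c-kit+ WT the means of Cd9, Cd24a, Cd47 and Prom1 were lower in the knockout-labelled libraries. Those of Cd34, Ly6a, Cd33, Cd48, Cd93 and, near 0, Slamf1 were higher there.

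**Figure D1:**
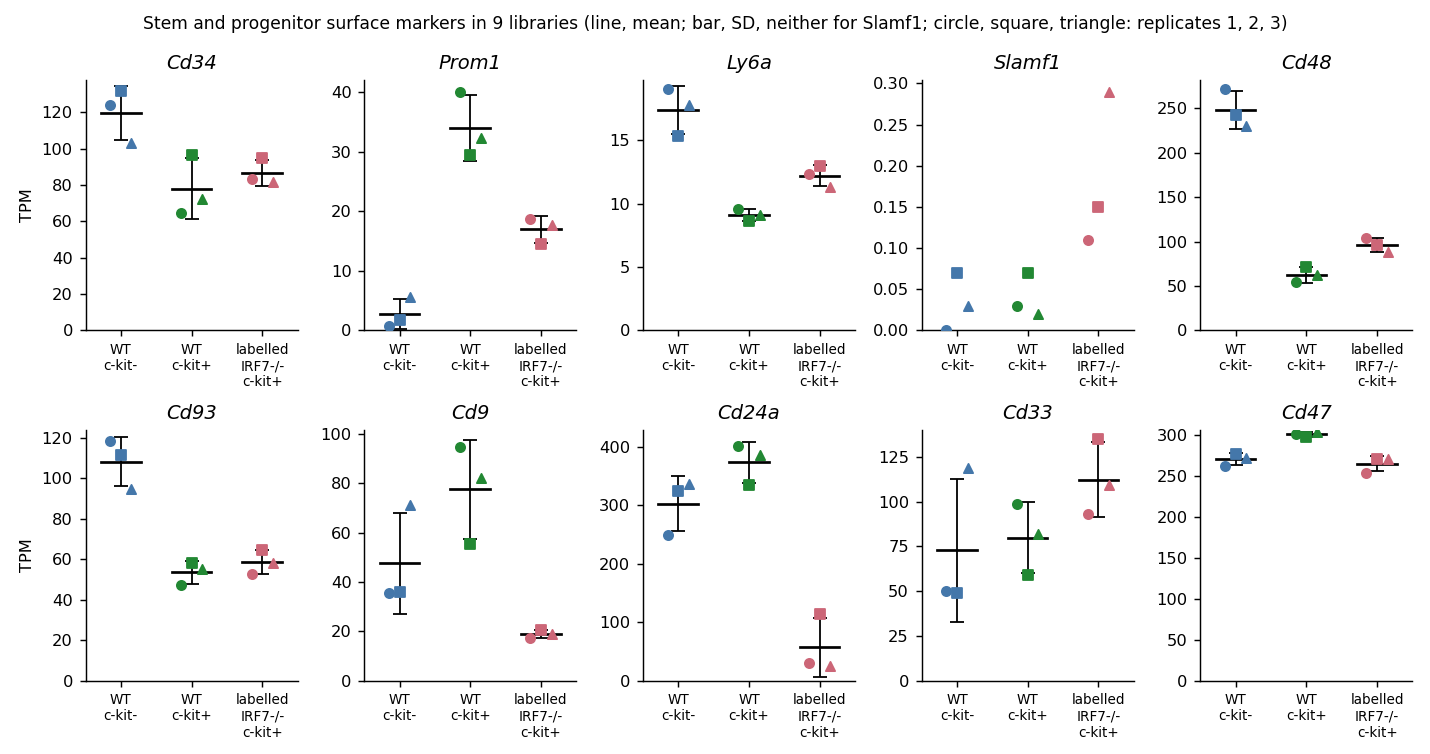
TPM (linear axis from 0, separate for each gene) of the 10 surface marker genes in the 3 libraries of c-kit- WT (blue), c-kit+ WT (green) and the knockout-labelled libraries (red), with the mean as a line and the SD as a bar except for Slamf1. Cd48 is highest in the blue libraries and Prom1 in the green, Cd24a and Cd9 are lowest in the red, and Slamf1 stays at or under 0.29 TPM.

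Between the WT populations, which asks how sorting by c-kit divides these leukemias, Cd48 and Cd93 fell in c-kit+ WT and Prom1 rose. Thus 3 of the 9 members tested passed both thresholds (limma adjusted p under 0.05 and a log2 fold change, log2FC, of 1 or more in either direction), beside 14.4% of the 13261 genes tested. Of these 1 rose, where 4.83% of all genes did, and 2 fell, where 9.61% did. With the adjusted p alone, 5 of 9 passed against 41.6% of all genes, 1 higher (14.0% of all genes) and 4 lower (27.6%). The libraries of both groups did not overlap for 6 of the 9, as for 54.4% of all genes. The median log2FC was 0.15 over the 9 members and -0.08 over all genes. Fold changes here and below are on the log2(TPM + 1) scale. Fewer cells of a type and less RNA per cell cannot be told apart in bulk libraries. An exact permutation test over 3 and 3 libraries has a floor of p = 0.1, which it reached for each member whose groups did not overlap.

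Cd48 encodes a lipid-anchored adhesion protein of the SLAM family, the ligand of CD244, and lies on chromosome 1 (chr1:171682009-171705258, + strand, GRCm38). Its level was 271, 243 and 230 TPM in c-kit- WT and 54.0, 71.6 and 62.2 TPM in c-kit+ WT. Every c-kit- library lay above every c-kit+ library, and the mean was 3.96-fold lower in c-kit+ WT. The log2FC was -1.98 (SE 0.11, limma adjusted p = 4.44e-05). In the knockout-labelled libraries the level was 104, 96.6 and 88.2 TPM, above each c-kit+ WT library and below each c-kit- WT library. The mean was 1.54-fold that of c-kit+ WT, with a log2FC of 0.62 (SE 0.11, limma adjusted p = 0.0048), short of the fold threshold. Against c-kit- WT Cd48 fell with a log2FC of -1.36 (limma adjusted p = 3.44e-05).

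Slamf1, the partner of Cd48 in the stem cell code, lies 61.9 kb further along the chromosome (chr1:171767127-171801184, + strand). It was 0, 0.07 and 0.03 TPM in c-kit- WT, 0.03, 0.07 and 0.02 in c-kit+ WT, and 0.11, 0.15 and 0.29 in the knockout-labelled libraries. None of the 9 libraries reached 1 TPM, so Slamf1 passed no filter and was not tested. The last 3 libraries were the highest. With no filter on low values its log2FC between the c-kit+ populations was 0.18 (limma adjusted p = 0.0946).

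Other SLAM genes of the same stretch of chromosome 1 moved with Cd48 between the WT populations (the plot of SLAM genes in genome order). All 6 members of the 10-gene SLAM list that passed the filter fell in c-kit+ WT, with a median log2FC of -1.88; Slamf1, Slamf8, Slamf9 and Cd2 were too low to test. Cd244a, the receptor for CD48, went from 39.3 ± 9.17 to 4.34 ± 1.02 TPM (log2FC -2.91, limma adjusted p = 7.98e-05). Slamf7 fell by 2.12, Ly9 by 1.78 and Cd84 by 1.52 on the same scale. Monocyte and macrophage genes were lower in the same libraries, with 6 of 8 falling, and the part this has in the SLAM values was not tested.

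Between the c-kit+ populations the SLAM genes parted. Cd244a was 3.92, 5.50 and 3.60 TPM in c-kit+ WT and 13.6, 19.9 and 36.2 TPM in the knockout-labelled libraries, a rise with a log2FC of 2.09 (limma adjusted p = 0.0029). Ly9 rose by a log2FC of 1.05, from 12.0 to 25.8 TPM. Slamf7 went the other way, from 2.95, 2.09 and 3.42 TPM to 0.11, 0.12 and 0.06 TPM (log2FC -1.79, limma adjusted p = 0.000497). Of 5 SLAM genes tested in this comparison 2 rose, 1 fell and 2 did not pass, Cd48 among the last. The spans of Cd244a and Ly9 overlap on opposite strands, but their annotated exons share 0 bases.

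**Figure D2:**
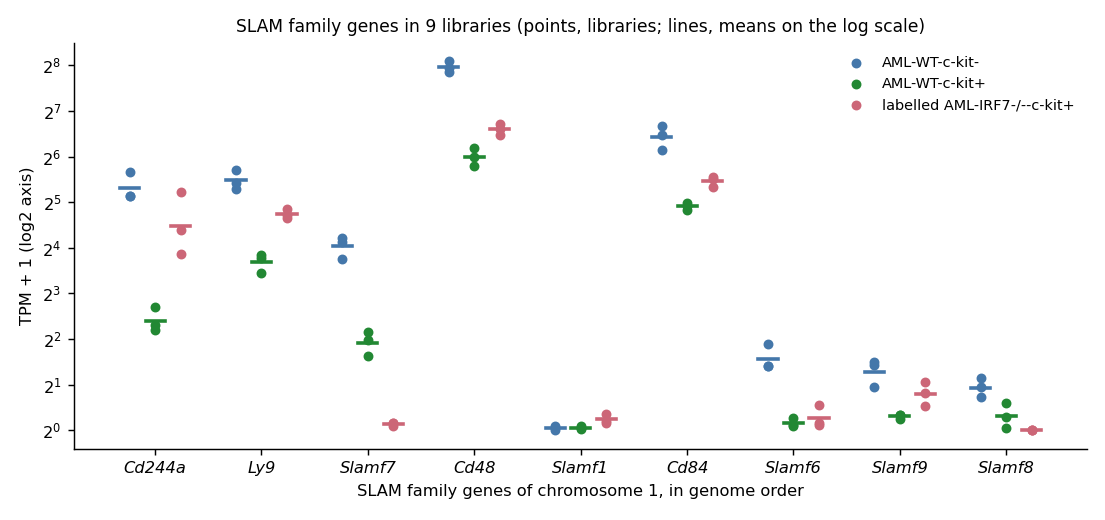
TPM + 1 on a log2 axis for the 9 SLAM family genes of chromosome 1, in their order along the chromosome, with a point for each of the 3 libraries of a group and a line at the mean of the log values. Blue points (c-kit- WT) lie above green (c-kit+ WT) for Cd244a, Ly9, Slamf7, Cd48, Cd84 and Slamf6, the red points (knockout-labelled libraries) lie between them for Cd244a, Ly9, Cd48 and Cd84 except for 1 library of Cd244a, and Slamf1 is near the floor in all groups.

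Cd93 encodes a C-type lectin-like membrane protein known as a marker of early progenitors (chr2:148436640-148443563, - strand). It was 118, 111 and 94.8 TPM in c-kit- WT and 47.2, 57.9 and 55.3 TPM in c-kit+ WT, without overlap. The log2FC of -1.0 (SE 0.11, 95% confidence interval -1.27 to -0.74, limma adjusted p = 0.000572) lay at the fold threshold. It no longer passed with quantile normalization (-0.81), with scaling by the median ratio (-0.90), or without c-kit- WT replicate 1 (-0.94), c-kit- WT replicate 2 (-0.98) or c-kit+ WT replicate 1 (-0.92), while its adjusted p stayed under 0.05 in each of these. In the knockout-labelled libraries the values of 52.9, 64.6 and 58.3 TPM overlapped with c-kit+ WT (log2FC 0.13, 95% confidence interval -0.12 to 0.38, limma adjusted p = 0.337). Against c-kit- WT the log2FC was -0.87 (limma adjusted p = 0.000546). Thbd, a lectin-like relative that encodes thrombomodulin, was the other gene of the 5-gene CD93 list with enough signal to test. It fell from 49.5 ± 5.25 to 12.3 ± 1.51 TPM between the WT populations (log2FC -1.92, limma adjusted p = 5.31e-05).

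Prom1 encodes prominin-1 (CD133), a pentaspan protein of membrane protrusions used as a stem cell marker in several tissues (chr5:43993620-44102032, - strand). Its level was 0.78, 1.80 and 5.56 TPM in c-kit- WT and 40.1, 29.4 and 32.3 TPM in c-kit+ WT. The rise had a log2FC of 3.44 (SE 0.45, 95% confidence interval 2.37 to 4.51, limma adjusted p = 0.00115), and Prom1 thus ran the opposite way to Cd48 and Cd93. c-kit- WT replicate 3 had the highest Prom1 and the highest Kit (3.03 TPM) of its group, and without it the log2FC was 3.96. In the knockout-labelled libraries the level was 18.7, 14.5 and 17.7 TPM, below every c-kit+ WT library and above every c-kit- WT library. The log2FC between the c-kit+ populations was -0.96 (SE 0.14, limma adjusted p = 0.00213), just short of the fold threshold. It passed with quantile normalization (-1.05), with scaling by the median ratio (-1.08), without c-kit+ WT replicate 2 (-1.05) and without replicate 1 of the knockout-labelled libraries (-1.03), whereas in a fit of all 9 libraries its adjusted p was 0.0755. Against c-kit- WT Prom1 rose by a log2FC of 2.48 (limma adjusted p = 0.00301). Its relative Prom2 was too low to test.

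Cd34 encodes a sialomucin that binds selectins (chr1:194938819-194961279, + strand). It was 124, 132 and 103 TPM in c-kit- WT and 64.3, 96.6 and 72.5 TPM in c-kit+ WT, so the group that carries c-kit had the lower level in every library. The log2FC was -0.63 (SE 0.16, 95% confidence interval -1.02 to -0.24, limma adjusted p = 0.0212), short of the fold threshold. The adjusted p was 0.0701 with quantile normalization and 0.0525 with no filter on low values, and it was 0.0594 to 0.0694 without c-kit- WT replicate 1, c-kit- WT replicate 2, c-kit+ WT replicate 1 or c-kit+ WT replicate 3. The knockout-labelled libraries had 83.3, 94.7 and 81.8 TPM, inside the range of c-kit+ WT (log2FC 0.17, 95% confidence interval -0.18 to 0.53, limma adjusted p = 0.376). Without c-kit+ WT replicate 2, the highest of its group, the value was 0.34 (limma adjusted p = 0.0279). Against c-kit- WT it was -0.46 (limma adjusted p = 0.00879). Of 5 sialomucin genes tested, Selplg, which encodes the selectin ligand PSGL-1, was the one that passed both thresholds between the WT populations: it fell from 632 ± 20.5 to 170 ± 13.3 TPM (log2FC -1.89, limma adjusted p = 1.25e-05).

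Ly6a, which encodes Sca-1, was a low member in each group (chr15:74994877-74998031, - strand). Its level was 19.0, 15.4 and 17.8 TPM in c-kit- WT and 9.59, 8.67 and 9.08 TPM in c-kit+ WT. The groups did not overlap, and the log2FC of -0.86 (SE 0.11, limma adjusted p = 0.000936) was short of the fold threshold. The knockout-labelled libraries lay between them at 12.3, 13.0 and 11.3 TPM. Against c-kit+ WT their log2FC was 0.38 (SE 0.09, limma adjusted p = 0.0138), with an adjusted p of 0.0573 under scaling by the median ratio, and against c-kit- WT it was -0.48 (limma adjusted p = 0.00828).

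Ly6a is known to respond to interferon, so the levels of interferon-stimulated genes stand beside it. A list of 16 such genes summed to 289 to 338 TPM in c-kit- WT, 170 to 177 TPM in c-kit+ WT, and 859.5, 289.5 and 343 TPM in the knockout-labelled libraries. Ly6a and this sum were both lowest in c-kit+ WT, but replicate 1 of the knockout-labelled libraries had the highest sum without the highest Ly6a. The part of interferon signalling in the Ly6a values was not tested. Among 7 Ly6 family genes tested between the WT populations, Ly6e fell from 2422 ± 118 to 901 ± 149 TPM (log2FC -1.44, limma adjusted p = 0.000237) and 6, Ly6a among them, did not pass. Between the c-kit+ populations Ly6k rose (log2FC 1.36) and Ly6g, a marker of maturing neutrophils, fell from 33.5 to 1.19 TPM (log2FC -3.93, limma adjusted p = 0.00026). Of the 906 stretches of 50 bases in the main Ly6a transcript, 10% also occur in transcripts of other genes, Ly6c1, Ly6c2 and Ly6i among them, so a share of its reads could have been split.

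The c-kit+ populations set knockout-labelled beside WT leukemia cells of the same sort. These leukemias were induced in cells of different donors, so genotype cannot be told apart from other differences between the leukemias. Between the c-kit+ populations Cd48, Ly6a and Cd33 were higher at an unadjusted p under 0.05 in limma, but no member rose past both thresholds. Cd9 and Cd24a fell past both thresholds in the knockout-labelled libraries. These 2 of 9 members tested stand beside 11.7% of 13238 genes tested, of which 5.39% fell and 6.30% rose. Which direction held more of the genes changed with the scaling, since 53.9% of those passing were higher here, 48.0% with quantile normalization and 46.3% with scaling by the median ratio, and it was 44.8% to 62.1% with a library left out. With the adjusted p alone 6 of 9 passed against 48.0% of all genes, 2 higher (31.9% of all genes) and 4 lower (16.1%), and the groups did not overlap for 6 of 9, as for 59.1% of all genes. The median log2FC was 0.13 over the 9 members and 0.12 over all genes. The same 2 genes were also among the 4 members that passed against c-kit- WT (Cd9, Cd24a and Cd48 lower, Prom1 higher), beside 20.3% of 13510 genes (8.40% higher and 11.9% lower). There 7 of 9 passed by the adjusted p alone against 59.4% of all genes, 1 higher (30.7%) and 6 lower (28.7%), and 7 of 9 did not overlap, as for 67.1%. The median there was -0.48 over the members and 0.03 over all genes. These comparisons share libraries, so their values are given side by side and are not independent.

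**Figure D3:**
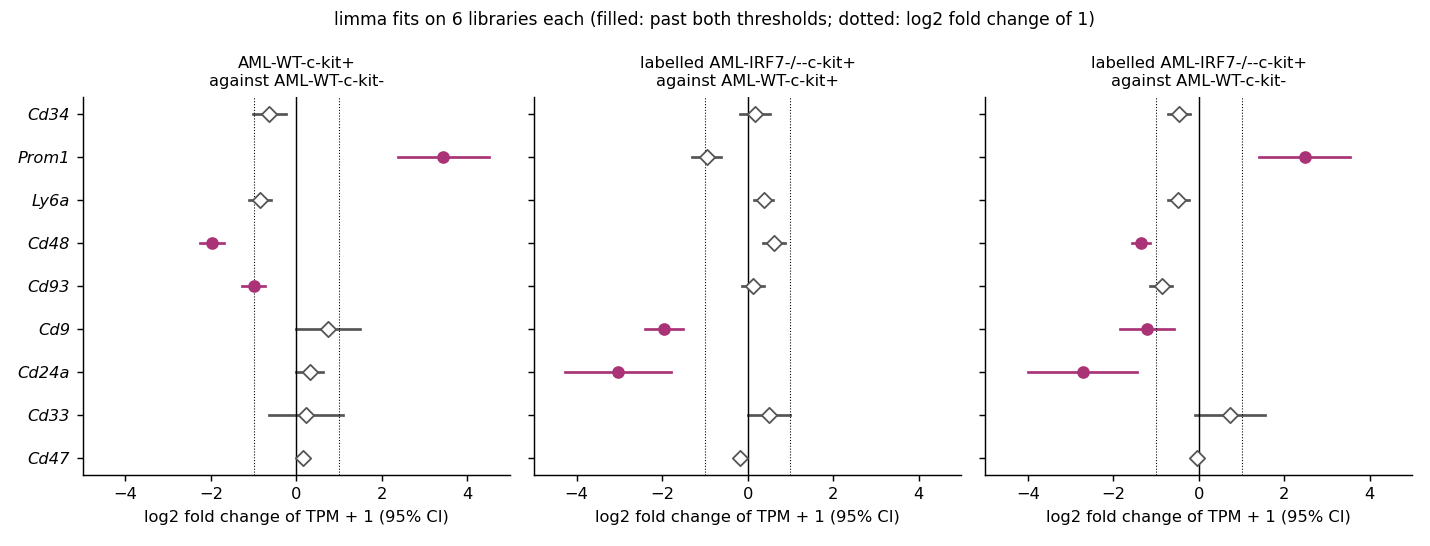
log2FC of TPM + 1 for the 9 members tested, with 95% confidence intervals from limma, in the 3 comparisons of 6 libraries each; filled points passed both thresholds and dotted lines mark a log2FC of 1 in either direction. Cd48 and Prom1 lie furthest from 0 in the left panel (-1.98 and 3.44) and Cd24a and Cd9 in the middle panel (-3.03 and -1.95), while Cd47 stays within 0.18 of 0 in all panels.

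Cd24a encodes a small lipid-anchored glycoprotein that is carried by granulocytes and by B and red cell precursors (chr10:43578284-43584265, + strand). It was 248, 324 and 335 TPM in c-kit- WT, 401, 334 and 385 TPM in c-kit+ WT, and 29.6, 115 and 25.7 TPM in the knockout-labelled libraries. The WT populations overlapped (log2FC 0.31, 95% confidence interval -0.01 to 0.62, limma adjusted p = 0.106; with quantile normalization 0.48, limma adjusted p = 0.0287), and every knockout-labelled library lay below both. The fall between the c-kit+ populations had a log2FC of -3.03 (SE 0.53, 95% confidence interval -4.28 to -1.78, limma adjusted p = 0.00398). Against c-kit- WT it was -2.72 (limma adjusted p = 0.00444). Replicate 2 of the knockout-labelled libraries was several times the other two, and without it the values were -3.71 (limma adjusted p = 5.95e-05) and -3.40 (limma adjusted p = 4e-05). That library also stood apart for Flt3, the gene of the FLT3 receptor, with 56.9 TPM against 8.65 and 7.93 in replicates 1 and 3. For Thbd it had 17.5 TPM against 6.32 in both others, and both genes were picked for this remark after their values were seen. Of the main Cd24a transcript, 3.9% of 50-base stretches are shared with the transcript of Gm6212.

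Cd9 encodes a tetraspanin, one of the proteins that cross the membrane 4 times and organise other surface proteins (chr6:125460266-125494791, - strand). Its level was 35.7, 36.0 and 71.1 TPM in c-kit- WT, 94.9, 55.6 and 82.3 TPM in c-kit+ WT, and 17.3, 20.4 and 19.1 TPM in the knockout-labelled libraries. The last 3 were the lowest and the closest to each other. Between the c-kit+ populations Cd9 fell by 1.95 on the log2 scale (SE 0.19, limma adjusted p = 0.000477), a mean 4.09-fold lower. Against c-kit- WT it fell by 1.21 (limma adjusted p = 0.00671). The WT populations overlapped through c-kit- WT replicate 3 (log2FC 0.74, 95% confidence interval -0.01 to 1.48, limma adjusted p = 0.103). Without that library Cd9 passed between the WT populations (1.06, limma adjusted p = 0.0132) and no longer reached the fold threshold in the knockout-labelled libraries against c-kit- WT (-0.89, limma adjusted p = 0.000766).

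The other tetraspanins moved in both directions. Of 13 genes tested between the WT populations 4 rose and 2 fell in c-kit+ WT. Cd63, a tetraspanin of granules and late endosomes, rose from 34.1 ± 13.0 to 396 ± 12.7 TPM (log2FC 3.58, limma adjusted p = 0.00011), Cd81 by a log2FC of 2.49 and Tspan2 by 2.17, and Tspan13 fell by 2.28. Between the c-kit+ populations 2 of 12 fell, Cd9 and Tspan13 (log2FC -1.07), and none rose past both thresholds. By the limma adjusted p alone 4 were higher and 4 lower. In the knockout-labelled libraries against c-kit- WT, 5 of 13 were higher past both thresholds, among them Cd63 (log2FC 4.18), Tspan32 (2.27) and Cd81 (2.07). There 3 were lower, among them Cd9 and Tspan13 (log2FC -3.35).

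Cd24a, Cd9 and the summed genes of maturing neutrophils were all lowest in the knockout-labelled libraries (the plot of both against the neutrophil sum). The monocyte and macrophage sum was lowest there too (633 to 796.6 TPM). Of the 10 neutrophil genes 9 fell in the knockout-labelled libraries against c-kit+ WT and all 10 fell against c-kit- WT. None of the 10 was at 0 in every knockout-labelled library. Inside c-kit+ WT the libraries ranked alike for the neutrophil sum (110900, 56740 and 84420 TPM in replicates 1, 2 and 3), Cd9, Cd24a and Cd33. Ly6a and Prom1 also ranked in this order there, and Cd34, Cd48 and Cd93 in the reverse order. In c-kit- WT the library with the highest sum, replicate 3, had the highest Cd9, Cd24a and Cd33, and also the highest Prom1. Among the knockout-labelled libraries replicate 2 had the highest sum (2529 TPM), Cd24a, Cd9 and Cd33. Cd34, Ly6a, Cd93 and Cd47 were highest in that library too. Between the WT populations the neutrophil sum did not overlap (56740 TPM at the lowest in c-kit+ WT, 30680 TPM at the highest in c-kit- WT). Its 4 most abundant genes set this gap, while Cd24a and Cd9 overlapped and passed neither threshold. Of the other 6 genes there Mmp8 fell and 5 did not pass, with log2FCs from -1.91 (Retnlg) to 1.18 (Ltf). The part of neutrophil maturation in the Cd9 and Cd24a values was not tested.

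**Figure D4:**
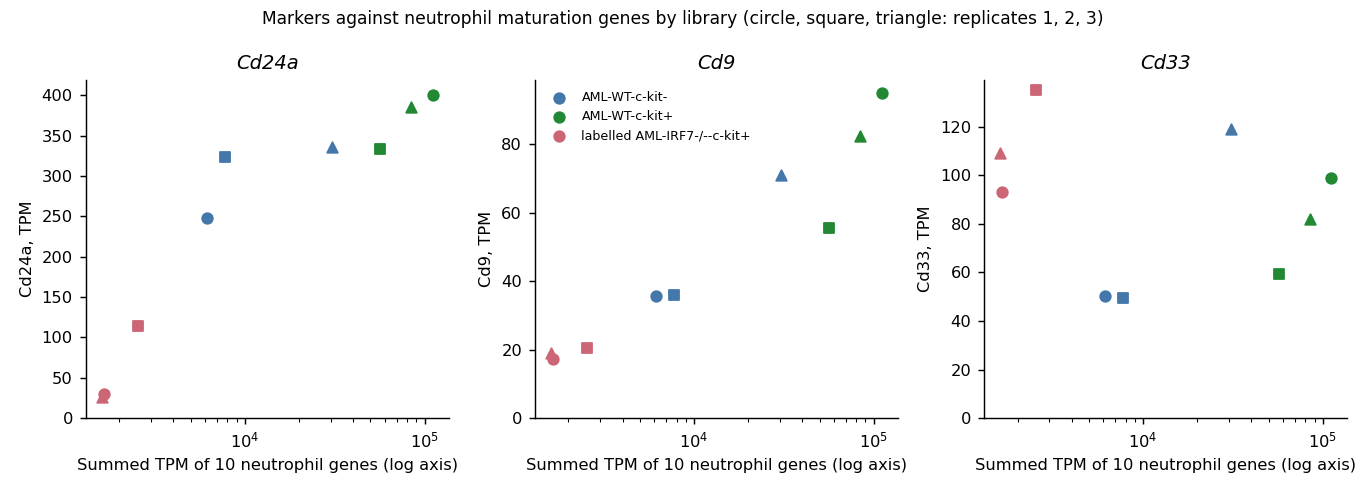
TPM of Cd24a, Cd9 and Cd33 (linear axes from 0) against the summed TPM of 10 genes of maturing neutrophils (log axis), 1 point per library, with the colour for the group and the shape for the replicate number. The 3 knockout-labelled libraries (red) lie at the lowest sums (1604 to 2529 TPM) with the lowest Cd24a and Cd9, but not the lowest Cd33.

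Cd33 encodes a sialic acid-binding lectin (Siglec) of myeloid cells (chr7:43524216-43544428, - strand). It was 50.2, 49.3 and 119 TPM in c-kit- WT, 98.9, 59.1 and 82.0 TPM in c-kit+ WT, and 93.1, 135 and 109 TPM in the knockout-labelled libraries. All pairs of groups overlapped, and no comparison passed. The log2FCs were 0.23 between the WT populations (95% confidence interval -0.64 to 1.10, limma adjusted p = 0.653), 0.50 between the c-kit+ populations (0.01 to 0.99, limma adjusted p = 0.0877) and 0.73 against c-kit- WT (-0.09 to 1.55, limma adjusted p = 0.109). Without c-kit- WT replicate 3, the highest of its group, the last value was 1.14 (limma adjusted p = 0.00191), past both thresholds, and without c-kit+ WT replicate 1 the value between the c-kit+ populations was 0.67 (limma adjusted p = 0.0441). Among the related Siglecs, Siglecf, which is known from eosinophils, rose in c-kit+ WT and was higher again in the knockout-labelled libraries. It was 3.24, 4.30 and 4.17 TPM in c-kit- WT, 22.0, 18.0 and 19.8 TPM in c-kit+ WT and 176, 144 and 181 TPM in the knockout-labelled libraries, with a log2FC of 2.09 between the WT populations (limma adjusted p = 6.04e-05) and 3.00 between the c-kit+ populations (limma adjusted p = 1.44e-05). Siglece also rose in the latter comparison (log2FC 1.24), and Cd22, the B cell Siglec, fell from 3.38 to 0.143 TPM.

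Cd47 encodes the ligand of SIRP-alpha, the inhibitory receptor by which macrophages spare a cell (chr16:49800533-49915010, + strand). It was the steadiest member, with 262, 276 and 272 TPM in c-kit- WT, 300.4, 297 and 303 TPM in c-kit+ WT, and 254, 271 and 270 TPM in the knockout-labelled libraries. c-kit+ WT was highest in each library, by a log2FC of 0.15 over c-kit- WT (limma adjusted p = 0.05, not under the threshold). With quantile normalization this value was 0.31 (limma adjusted p = 0.00298), with scaling by the median ratio 0.26 (limma adjusted p = 0.00845), and in a fit of all 9 libraries its adjusted p was 0.0249. The knockout-labelled libraries were lower than c-kit+ WT by a small margin (log2FC -0.18, 95% confidence interval -0.30 to -0.06, limma adjusted p = 0.0224), well inside the fold threshold. The adjusted p was 0.0567 to 0.0974 in 4 of the 6 fits that left out a library (replicate 1 or 3 of either group). They did not differ detectably from c-kit- WT (log2FC -0.03, 95% confidence interval -0.15 to 0.09). The direction of this last value changed with quantile normalization.

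A list of 8 genes, called CD47 partners here, was less steady than Cd47. It holds Sirpa, the gene of SIRP-alpha, and also the related Sirpb1 genes, so a place in it does not mean binding to CD47. Of these 8 genes 5 fell in c-kit+ WT against c-kit- WT, with a median log2FC of -1.47. Sirpa, named here as the receptor gene, was 274 ± 22.9 TPM in c-kit- WT and 126 ± 15.5 TPM in c-kit+ WT. In the knockout-labelled libraries it was 112 ± 16.9 TPM. The activating SIRP genes Sirpb1c (52.3 to 1.41 TPM, log2FC -4.44, limma adjusted p = 3.02e-05), Sirpb1b (-4.16) and Sirpb1a (-3.85) fell furthest. These 3 are close copies of each other, so their reads may have been split between them. In the knockout-labelled libraries against c-kit+ WT 2 of 7 fell, among them Thbs1, the gene of the CD47 ligand thrombospondin-1, from 18.8 ± 9.28 to 0.437 ± 0.304 TPM (log2FC -3.69, limma adjusted p = 0.00056). The summed monocyte and macrophage genes, of which Lyz2 is the largest part, were lower in the same groups, as given above. Between the c-kit+ populations that list was mixed, with 2 of 7 genes tested falling past both thresholds. By the limma adjusted p alone 4 were lower and 2 higher there. The part of monocyte and macrophage genes in the SIRP values was not tested.

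Other stem and progenitor surface markers, a list of 26 genes, gave the members a setting. Between the WT populations 18 could be tested, of which 1 rose and 4 fell. Kit, the sorting marker, was the one that rose (log2FC 4.52), and Bst1 (-2.71), Flt3 (-2.24) and Havcr2 (-1.45) fell furthest. Between the c-kit+ populations 3 of 15 rose, and these were Il3ra, the interleukin-3 receptor alpha chain (37.4 ± 4.91 to 98.5 ± 15.2 TPM, log2FC 1.37, limma adjusted p = 0.000533), the endoglin gene Eng (1.34) and the Fc receptor gene Fcgr3 (1.22). Alcam, which encodes an adhesion molecule, fell from 14.7 ± 2.44 to 0.86 ± 0.282 TPM (log2FC -3.07, limma adjusted p = 7.14e-05). In c-kit- WT Il3ra was 91.1 ± 3.08 TPM, so c-kit+ WT was its lowest group. Of 17 tested against c-kit- WT, 4 rose in the knockout-labelled libraries, among them Adgrg1 (GPR56, log2FC 2.01), and 3 fell. Over all 80 related genes of these lists that are not members, 6 rose and 21 fell of 59 tested between the WT populations, 8 rose and 7 fell of 51 between the c-kit+ populations, and 11 rose and 19 fell of 59 in the knockout-labelled libraries against c-kit- WT. These are 45.8%, 29.4% and 50.8% of those tested, beside 14.4%, 11.7% and 20.3% of all genes in the same comparisons. The shares over all genes also stand beside the counts of the single lists above. The lists were chosen with earlier results known, so the difference in shares was not tested.

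Transcripts that overlap a member were low. Gm16897, antisense to Cd34, was 1.29 TPM at most, Gm28809, antisense to Cd9, was 2.19 TPM at most, and Gm37010 on the strand of Cd48 was 1.47 TPM at most. The main transcripts of Cd34, Cd47, Cd48, Prom1 and Slamf1 shared no 50-base stretch with another gene, and those of Cd9, Cd33 and Cd93 shared 1.19%, 0.546% and 0.604% of theirs.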

How the data were processed

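RNA of 9 libraries was profiled by sequencing of TruSeq libraries per the labels, while the study's text calls the assay a microarray. The authors deposited 1 table of 55536 genes and did not name its unit. The values were read as TPM because every deposited library sums to between 987468 and 992231. The aligner, genome build and use of strand are not given in the sources used here. TPM keep no depth, so no counting intervals are given, and abundant genes of 1 group lower all others there (the top 10 genes took 13.1% to 17.3% of the c-kit+ WT libraries and 9.39% to 10.3% elsewhere).

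All libraries were kept. Columns were matched by name, with 0 unmatched. Genes that reached 1 TPM in 3 or more of the 6 libraries of a comparison were fitted with limma (version 3.58.1, R 4.3.3; lmFit, eBayes with trend) on log2(TPM + 1), without covariates, and p-values were Benjamini-Hochberg adjusted over all genes tested. Genes passed at an adjusted p under 0.05 and a log2 fold change (log2FC) of 1 or more in either direction. Single members were also put to a two-sided exact permutation test. On simulated data 91%, 93% and 94% of 200 changed genes were recovered in the 3 comparisons. Recovery was not tested separately for genes near the fold threshold or at low levels. Coordinates are from GENCODE M21 (GRCm38), which held 55450 of the gene identifiers, and promoters from RefSeq (GRCm38.p6). The 250 bases before each RefSeq start were searched. Tables and plots used Python 3.11.15, pandas 2.3.3 and matplotlib 3.10.9. Members and lists were chosen with earlier results of these data known. All members are named; other genes are named where they passed both thresholds, at most 4 per list and comparison if the higher group averaged 1 TPM or more, except where marked. Alternatives were a pseudocount of 0.1, no filter, a 5 TPM filter, quantile and median-ratio scaling, a fit of all 9 libraries, a replicate block and leaving out each library.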

Additional observations from a re-analysis of the deposited data

How the results depend on the processing

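Across 30 member values and 354 alternatives to them, 339 kept their direction and side of the thresholds, 6 no longer passed, 6 newly passed and 3 changed direction. Slamf1 could be tested only with no filter on low values (log2FC of 0.01, 0.18 and 0.19, limma adjusted p of 0.892, 0.0946 and 0.0738). These Slamf1 values count among the 339 although they had no main test to compare with. A changed filter, the fit of all 9 libraries and the replicate block leave the log2FC of a member as it was. In those alternatives only the adjusted p could change a call. The 3 changes of direction were in values near 0: Cd93 between the c-kit+ populations was 0.00 with scaling by the median ratio, and Cd47 in the knockout-labelled libraries against c-kit- WT was 0.03 with quantile normalization and ran from -0.05 to 0.00 with a library left out, with the change of direction when replicate 1 of the knockout-labelled libraries was left out. With a filter of 5 TPM, which leaves fewer genes to test, 1015 genes passed between the c-kit+ populations, against 1548. Leaving out single libraries, the genes passing numbered 1676 to 1829 between the WT populations, 1242 to 1412 between the c-kit+ populations and 2319 to 2445 in the third comparison, and the members passing 2 to 4, 2 to 3 and 4. Over all genes the median log2FC moved with quantile normalization between the WT populations from -0.08 to 0.07.

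The labels give the groups the same replicate numbers but do not say that equal numbers share a mouse or day. Deviations of same-numbered libraries correlated with r of -0.071 to 0.237 between the WT populations, 0.019 to 0.097 between the c-kit+ populations and 0.045 to 0.079 in the third comparison, so the numbers were not taken as pairs. With the replicate number as a block 1950, 1549 and 2749 genes passed, and 3, 2 and 4 members, and the block changed no call on a member.

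The precision of each value rests on 3 libraries per group, the depth is unknown, and levels under 1 TPM, as of Slamf1, were not tested.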
